A study of Homo sapiens with 9 samples.

Results

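Messenger RNA of 10 genes of the hypoxia-inducible factor (HIF) pathway was followed in DU145, a human cell line established from a prostate carcinoma, treated with the compound H93 or with SAHA. The genes were taken as a list of names, drawn up with earlier results of these data known: the HIF alpha subunits HIF1A and EPAS1, the oxygen-sensing hydroxylases EGLN1 and EGLN3, and the hypoxia targets CA9, VEGFA, ADM, NDRG1, BNIP3 and P4HA1. All 10 were among the 16772 genes of the deposited expression table. Cells labelled as wild type (WT) were kept for 6 days in solvent alone (DMSO), in 20 microM H93 dissolved in DMSO, or in SAHA dissolved in DMSO at a dose the labels write as 500 nm, read here as nanomolar. SAHA is vorinostat, a histone deacetylase inhibitor, and the series title describes H93 as directed at UHRF1, a protein that brings the maintenance DNA methyltransferase to replicated DNA. Each group had 3 libraries, the labels mention no low-oxygen culture, and nothing in them shows that the 3 came from separate cultures. The p-values then reflect only library-to-library variation, which could be technical.

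HIF is a dimer of an oxygen-regulated alpha subunit and the stable partner ARNT. With oxygen present, EGLN prolyl hydroxylases mark the alpha subunit, the VHL ubiquitin ligase recognises the mark, and the protein is degraded. When oxygen falls, the alpha subunit accumulates and the dimer binds short DNA elements at genes for blood vessel growth, pH control, glycolysis, mitophagy and collagen folding. The control acts mainly on the protein, which RNA sequencing does not measure.

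The core of the HIF binding element is ACGTG or GCGTG. It was searched on both strands in RefSeq promoter windows (build GRCh38.p14), which run from 250 bases before to 50 after a gene's annotated start. Windows were examined for 8 of the 10 genes (9 windows, since HIF1A has 2 starts). None was examined for VEGFA or NDRG1, so nothing is said here of their promoters. The core was present for 7 of the 8 genes, all but EGLN3, and for HIF1A in only 1 of its 2 windows. That is a common match: counted by window and not by gene, 48.4% of all 35116 windows of 300 bases hold it. BNIP3 had 6 matches, of which an adjoining pair overlap as the palindrome CACGTG, and 0.923% of all windows have 6 or more. The 4 windows printed here belong to a gene with many matches that was lower after H93 (BNIP3), a subunit gene that was lower after both compounds (EPAS1), a target that was higher (ADM), and a target that was almost silent (CA9). Capitals mark the core on either strand, and each sequence reads 5′ to 3′ on the gene's own strand.
BNIP3 (chr10:131981874-131982173, minus strand): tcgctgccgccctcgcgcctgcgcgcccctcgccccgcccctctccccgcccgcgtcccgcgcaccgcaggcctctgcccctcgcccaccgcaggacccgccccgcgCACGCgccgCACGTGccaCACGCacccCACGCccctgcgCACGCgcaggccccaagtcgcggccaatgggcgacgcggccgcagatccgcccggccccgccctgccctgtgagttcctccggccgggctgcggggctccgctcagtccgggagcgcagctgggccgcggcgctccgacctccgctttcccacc
EPAS1 (chr2:46297157-46297456, plus strand): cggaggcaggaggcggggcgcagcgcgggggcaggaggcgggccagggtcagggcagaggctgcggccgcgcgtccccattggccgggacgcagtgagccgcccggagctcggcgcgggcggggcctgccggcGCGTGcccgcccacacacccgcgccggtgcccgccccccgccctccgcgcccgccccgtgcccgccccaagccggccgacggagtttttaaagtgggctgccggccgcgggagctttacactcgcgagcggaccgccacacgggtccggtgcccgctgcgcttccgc
ADM (chr11:10304823-10305122, plus strand): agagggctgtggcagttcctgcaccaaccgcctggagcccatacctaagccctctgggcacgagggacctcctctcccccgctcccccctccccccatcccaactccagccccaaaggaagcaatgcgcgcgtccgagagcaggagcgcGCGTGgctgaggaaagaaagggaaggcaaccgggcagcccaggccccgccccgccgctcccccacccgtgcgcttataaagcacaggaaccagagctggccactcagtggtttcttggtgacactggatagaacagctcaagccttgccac
CA9 (chr9:35673678-35673977, plus strand): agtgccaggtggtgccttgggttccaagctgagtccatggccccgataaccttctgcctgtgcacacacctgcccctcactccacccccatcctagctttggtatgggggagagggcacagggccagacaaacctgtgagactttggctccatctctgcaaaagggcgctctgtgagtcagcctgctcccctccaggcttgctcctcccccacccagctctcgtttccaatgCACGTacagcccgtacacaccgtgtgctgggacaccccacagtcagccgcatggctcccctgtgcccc
BNIP3 holds 48 CpG sites in its window and EPAS1 47, where the median window holds 14. Only 1.6% of windows hold more than BNIP3 and 1.98% more than EPAS1. ADM holds 16 CpG sites and CA9 only 7, near or below that median. Of the windows not printed, that of EGLN1 holds 42, P4HA1 31 and EGLN3 27, and those of HIF1A hold 31 and 3. A match is a description of the letters and not a measured binding site, and DNA methylation was not measured here.

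Expression is given as FPKM, fragments per kilobase of transcript scaled to the mapped fragments of the library, so that levels are per length. In DMSO the highest level was that of BNIP3 (mean 114 FPKM), followed by HIF1A (73.5), P4HA1 (58.9), VEGFA (57.2), EGLN1 (29.5), EPAS1 (18.0), ADM (13.7), NDRG1 (12.8), EGLN3 (4.65) and CA9 (0.0112). Neighbours in this order were separated in every library except ADM and NDRG1, whose DMSO libraries overlapped. In DMSO 4.23% of tested genes were higher than BNIP3 and 7.57% higher than HIF1A, while 71.4% were higher than EGLN3. After H93 BNIP3 and HIF1A overlapped (82.2 to 89.2 against 82.5 to 86.7 FPKM), and NDRG1 and ADM no longer did.

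**Figure D1:**
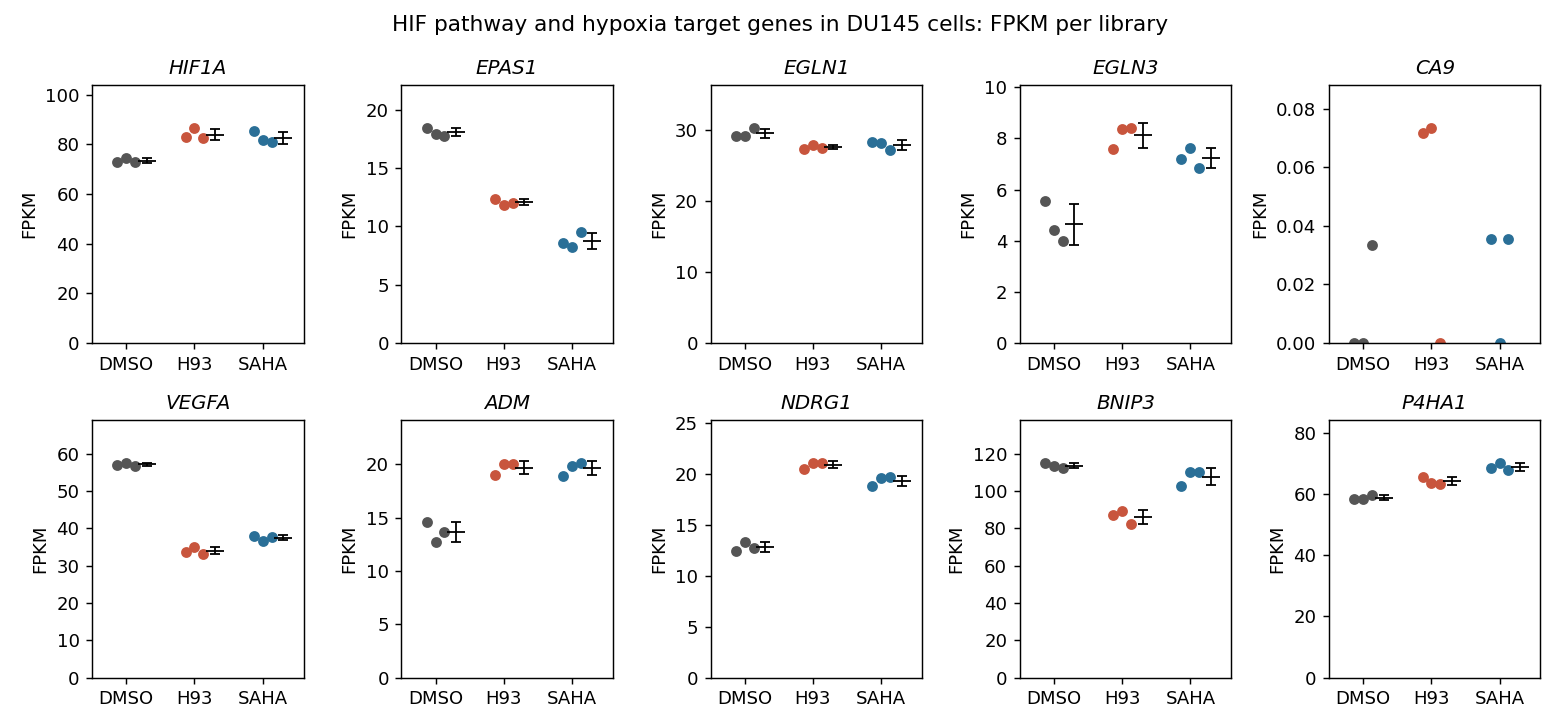
FPKM of the 10 genes, with 1 point per library in DMSO (grey), H93 (red) and SAHA (blue), each axis starting at 0. Short bars give the mean and SD of 3 libraries, and none is drawn for CA9, whose values are 0 or close to 0. The DMSO points of VEGFA, EPAS1, ADM, NDRG1 and EGLN3 stand apart from those of both treatments.

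Genes were called higher or lower where limma, fitted to log2(FPKM + 1) of all 9 libraries, gave a Benjamini-Hochberg adjusted p under 0.05 over 11525 tested genes. Of the 10 genes 9 were tested, because CA9 did not reach an FPKM of 1 in 3 libraries. After H93 all 9 were called against DMSO, 5 higher (HIF1A, EGLN3, ADM, NDRG1 and P4HA1) and 4 lower (EPAS1, EGLN1, VEGFA and BNIP3). Among all tested genes 69.8% were called in this comparison, 34.9% higher and 35% lower, so a call by itself is common here. After SAHA 8 of the 9 were called against DMSO, where 58.8% of all genes were: 5 higher, against 27.4% of all genes, and 3 lower, against 31.4%. None of the 9 passed a stricter call that also needs a log2 difference of at least 1 (2-fold), which 2.28% of genes passed after H93 and 1.12% after SAHA. In every one of the 9 the H93 and DMSO libraries did not overlap, as in 73.2% of all genes, and the SAHA and DMSO libraries did not overlap either, as in 64.1%. The median absolute log2 difference of the 9 was 0.496 after H93 and 0.494 after SAHA, and that of all tested genes was 0.2 and 0.147. Both comparisons use the same DMSO libraries. In bulk RNA, fewer cells expressing a gene and less RNA per cell cannot be told apart.

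Some facts of the whole set bear on these values. The absolute read depth is unknown, and steps in the lowest values put the libraries within 0.875 to 1 of the deepest. FPKM sums lay between 348656 and 355741. All 7 genes listed to mark DU145, the epithelial KRT8, KRT18, KRT19, KRT7, EPCAM and CDH1 and the mesenchymal VIM, were above an FPKM of 1 in every library, with summed levels of 2437 to 2474 in DMSO, 2928 to 2963 in H93 and 2838 to 2945 in SAHA. Within that list the means of VIM were 536.8 in DMSO, 796.8 in H93 and 808.9 in SAHA, and those of KRT19 were 169.4, 420.4 and 326.5. EPCAM was lower in the treated groups, at 67.1, 30.5 and 37.8, and so was CDH1, at 13.3, 4.34 and 5.09. The 4 endothelial markers, KDR among them, summed to at most 0.397 and none reached an FPKM of 1, and PTPRC of blood cells reached at most 0.0179. The 3 blood markers in the table summed to 0.567 to 0.661 in DMSO, 0.836 to 1.09 in H93 and 0.541 to 1.13 in SAHA, nearly all of it CD14, with means of 0.574, 0.939 and 0.807. Of 5 fibroblast markers, COL1A1 alone stayed above 1 in all libraries, at 2.04 to 3.58, and the list summed to 2.53 to 3.55 in DMSO, 3.86 to 4.59 in H93 and 3.84 to 6.62 in SAHA. Their part in the results was not tested.

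HIF1A encodes the broadly expressed oxygen-regulated alpha subunit. It stood at 72.8, 74.6 and 73.0 FPKM in DMSO, 82.8, 86.7 and 82.5 in H93, and 85.4, 81.9 and 80.8 in SAHA. Every treated library was above every control library, and the treated groups overlapped each other. The mean was 14.4% higher after H93 (log2 difference 0.19, SE 0.0280, adjusted p = 5.77e-05) and 12.6% higher after SAHA (0.17, SE 0.0280, adjusted p = 0.000246). These are small steps on the scale of the whole data, since 52.1% of genes differed by more after H93 and 44.4% after SAHA.

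EPAS1 encodes HIF-2 alpha, the subunit known for driving a partly different set of targets. Its libraries read 18.4, 17.9 and 17.8 FPKM in DMSO, 12.37, 11.84 and 12.01 in H93, and 8.56, 8.21 and 9.55 in SAHA. The 3 groups formed separate steps with no overlap, and SAHA was the lowest. EPAS1 fell by 33.1% after H93 (log2 difference -0.54, SE 0.0466, adjusted p = 4.78e-07) and fell by 51.4% after SAHA (-0.96, SE 0.0466, adjusted p = 6.17e-09). Only 1.26% of tested genes differed by more than EPAS1 after SAHA, against 12.5% after H93. On the log2(FPKM + 1) scale the fall after SAHA stops short of 2-fold although the mean FPKM went to 0.486 of control, and the 2-fold call was passed with a pseudocount of 0.1 (log2 difference -1.03) and without SAHA replicate 3 (-1.02).

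The ratio of HIF1A to EPAS1 within a library was higher in every treated library. It was 3.95, 4.16 and 4.11 in DMSO, 6.69, 7.32 and 6.87 in H93, and 9.97, 9.97 and 8.47 in SAHA, a description without a test. EGLN1 over EGLN3, a ratio between hydroxylase transcripts, went the other way. It was 5.26, 6.60 and 7.59 in DMSO, 3.62, 3.33 and 3.26 in H93, and 3.94, 3.69 and 3.96 in SAHA. Neither ratio had overlapping control and treated libraries.

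**Figure D2:**
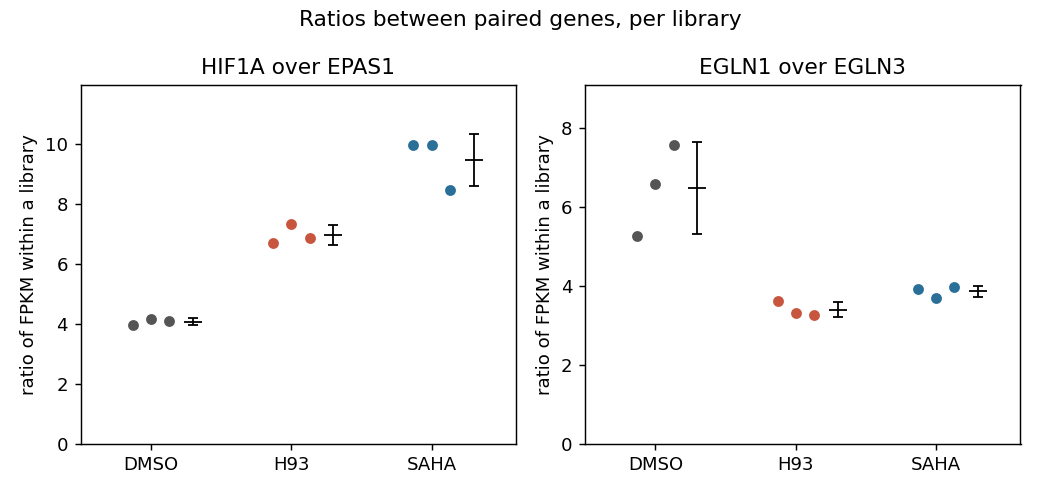
Ratio of FPKM between related genes within each library, 1 point per library, with the mean and SD of 3 beside them. HIF1A over EPAS1 averaged 4.07 in DMSO, 6.96 in H93 and 9.47 in SAHA, and EGLN1 over EGLN3 averaged 6.48, 3.40 and 3.86.

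The other subunits were low or moved little. ARNT, the shared dimer partner, was 16.6 ± 0.380 FPKM in DMSO, 17.6 ± 0.350 in H93 and 17.1 ± 0.757 in SAHA (mean ± SD, n = 3, as in the values that follow), and was not called after either compound (adjusted p = 0.0545 and 0.315 in limma). ARNT2, a partner with narrower expression, fell from 3.07 ± 0.162 to 2.10 ± 0.279 after H93 and 2.32 ± 0.176 after SAHA. HIF3A, an alpha subunit with inhibitory splice forms, was below an FPKM of 1 in all libraries and so was not tested. It read 0.0384, 0.00712 and 0.0256 in DMSO, 0.288, 0.469 and 0.355 in H93, and 0.440, 0.365 and 0.36 in SAHA. Every treated library was thus above every control one, at low levels throughout.

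EGLN1 encodes PHD2, the main HIF prolyl hydroxylase in normal oxygen. It was 29.1, 29.1 and 30.3 FPKM in DMSO, 27.4, 27.9 and 27.4 in H93, and 28.4, 28.2 and 27.1 in SAHA. The treated libraries all lay just below the controls. It fell by 6.65% after H93 (log2 difference -0.10, SE 0.0288, adjusted p = 0.0100) and fell by 5.55% after SAHA (-0.08, adjusted p = 0.0309). Both calls rest on DMSO replicate 3: without it the adjusted p was 0.0509 for H93 and 0.127 for SAHA in limma. The SAHA call was also lost without SAHA replicate 3 (0.116), under quantile normalization (0.0608) and with the replicate number as a block (0.0514).

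EGLN3 encodes PHD3, a hydroxylase whose own gene is a well-known HIF target. Its libraries read 5.54, 4.42 and 3.99 FPKM in DMSO, 7.57, 8.38 and 8.41 in H93, and 7.21, 7.64 and 6.84 in SAHA. Relative to their mean, the control libraries spread more than those of the other tested members, yet none reached a treated one. EGLN3 rose by 74.7% after H93 (log2 difference 0.70, SE 0.0827, adjusted p = 8.78e-06) and by 55.5% after SAHA (0.55, adjusted p = 0.000107). Some 6.60% of genes differed by more after H93 and 6.34% after SAHA. With a pseudocount of 5 these log2 differences become 0.45 and 0.34, as that scale compresses low values.

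Among the other parts of the oxygen-sensing machinery, called genes went both ways. The list held 14 genes with both EGLN members, all tested: 6 rose and 5 fell after H93 (median log2 difference 0.082, against 0.002 for all genes), and 6 rose and 4 fell after SAHA (-0.027 against -0.015). The called share was 78.6% after H93 and 71.4% after SAHA, against 69.8% and 58.8% of all genes. VHL, the substrate receptor of the ligase, fell from 25.5 ± 0.706 to 21.8 ± 0.308 after H93 and 23.0 ± 0.708 after SAHA. CUL2, its cullin scaffold, rose from 12.7 ± 0.347 to 15.9 ± 0.635 and 14.9 ± 0.541, and ELOC, an elongin subunit of the same ligase, rose from 30.1 ± 0.566 to 35.5 ± 1.38 and 33.5 ± 1.21. OS9, which binds HIF-1 alpha and EGLN proteins and also serves in protein quality control, rose from 79.5 ± 2.30 to 101 ± 1.18 and 95.5 ± 2.50. P4HTM, a membrane prolyl hydroxylase, fell from 12.7 ± 0.0505 to 11.3 ± 0.554 and 10.8 ± 0.347.

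VEGFA encodes the vascular endothelial growth factor, the classic secreted HIF target. It was 57.1, 57.6 and 56.8 FPKM in DMSO, 33.8, 35.1 and 33.2 in H93, and 38.01, 36.75 and 37.73 in SAHA. The libraries within each group were tightly spaced and the 3 groups did not overlap. VEGFA fell by 40.4% after H93 (log2 difference -0.73, SE 0.0272, adjusted p = 3.11e-10) and fell by 34.4% after SAHA (-0.60, SE 0.0272, adjusted p = 3.80e-09). It ranked high among changes, with 5.87% of genes differing by more after H93 and 5.15% after SAHA.

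ADM encodes adrenomedullin, a vasodilator peptide that hypoxia usually raises together with VEGFA. Its libraries read 14.6, 12.7 and 13.6 FPKM in DMSO, 19.0, 20.0 and 20.0 in H93, and 18.9, 19.9 and 20.2 in SAHA. It thus went in the opposite direction to VEGFA, with all treated libraries above all controls. ADM rose by 43.9% after H93 (log2 difference 0.50, SE 0.0462, adjusted p = 9.86e-07) and by 43.6% after SAHA (0.49, adjusted p = 1.93e-06).

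The wider list of angiogenic and secreted hypoxia targets was also divided. Of 19 listed genes 14 were tested; 8 rose and 4 fell after H93, and 8 rose and 5 fell after SAHA, with medians of 0.483 and 0.318, against 0.002 and -0.015 for all genes. Of the list 85.7% and 92.9% were called, against 69.8% and 58.8% of all genes. STC1, the hormone stanniocalcin, rose from 14.1 ± 0.328 to 46.0 ± 1.04 after H93 and 38.2 ± 0.532 after SAHA. VEGFC, a growth factor of lymphatic vessels, rose from 5.88 ± 0.365 to 12.9 ± 1.01 and 12.3 ± 0.599. PDGFB, a growth factor for cells of the vessel wall, fell from 14.9 ± 0.106 to 7.28 ± 0.336 and 8.45 ± 0.527. The list thus holds a VEGF family member that rose beside VEGFA, which fell.

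NDRG1, a stress-responsive gene widely used as a reporter of hypoxia, read 12.4, 13.3 and 12.7 FPKM in DMSO, 20.5, 21.1 and 21.1 in H93, and 18.8, 19.6 and 19.7 in SAHA. The 3 groups were separate and H93 was highest. NDRG1 rose by 62.8% after H93 (log2 difference 0.66, SE 0.0342, adjusted p = 4.75e-09) and by 50.8% after SAHA (0.56, adjusted p = 4.98e-08). Of its 3 relatives, NDRG4 rose from 4.32 ± 0.274 to 7.29 ± 0.241 and 6.74 ± 0.198. NDRG3 fell from 19.98 ± 0.403 to 18.78 ± 0.687 after H93 (adjusted p = 0.0442) and was 19.11 ± 0.537 after SAHA, which was not called. NDRG2 was not called after either compound, at 4.27 ± 0.490, 4.26 ± 0.0992 and 4.46 ± 0.286.

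NDRG genes and other hypoxia reporters went both ways. Of 22 tested genes 6 rose and 11 fell after H93 (median -0.108), and 6 rose and 9 fell after SAHA (-0.05), where the medians of all genes were 0.002 and -0.015. Calls covered 77.3% and 68.2% of the list, against 69.8% and 58.8% of all genes. TMEM45A, a transmembrane protein gene induced by hypoxia, rose from 1.71 ± 0.116 to 7.36 ± 0.625 after H93 and 5.51 ± 0.540 after SAHA. DDIT4, the mTOR inhibitor REDD1 and a HIF target that also answers other stresses, fell from 68.1 ± 1.38 to 26.5 ± 0.688 and 32.9 ± 0.774.

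BNIP3 encodes a mitochondrial receptor for mitophagy. Its libraries read 115, 113 and 112 FPKM in DMSO, 87.3, 89.2 and 82.2 in H93, and 103, 110 and 110 in SAHA. H93 stood below both other groups, whereas SAHA lay close under the controls. BNIP3 fell by 24.1% after H93 (log2 difference -0.39, SE 0.0346, adjusted p = 5.67e-07). After SAHA the difference was -0.08 (95% interval -0.15 to -0.00, adjusted p = 0.0755), which was not called, though it was under quantile normalization (0.00971), with a fixed sum per library (0.0336) and without H93 replicate 3 (0.0457). GENCODE release 29 names 39 BNIP3 pseudogenes, so reads could be split between copies and the level of BNIP3 is uncertain. BNIP3L, its relative, was 44.0 ± 0.790 in DMSO, 41.7 ± 0.386 in H93 and 43.9 ± 1.46 in SAHA. In limma BNIP3L was called lower after H93 (log2 difference -0.07, adjusted p = 0.0343) and was not called after SAHA (adjusted p = 0.879).

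Of the 8 tested genes in the mitophagy and survival list, 3 rose and 3 fell after H93, and 4 rose and 0 fell after SAHA, with medians of -0.059 and 0.064, against 0.002 and -0.015 for all genes. The called share was 75.0% after H93, near the 69.8% of all genes, and 50% after SAHA, below the 58.8% of all genes. HIGD1A, a mitochondrial inner-membrane protein gene induced by hypoxia, rose from 49.1 ± 0.165 to 92.4 ± 1.84 after H93 and 79.3 ± 1.82 after SAHA. MXI1, a MYC antagonist, rose from 7.05 ± 0.452 to 9.78 ± 0.126 and 9.70 ± 0.723. PDK1, a pyruvate dehydrogenase kinase, fell from 5.08 ± 0.181 to 4.001 ± 0.2445 after H93. It was 4.89 ± 0.0642 after SAHA, which was not called.

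P4HA1 encodes the catalytic subunit of collagen prolyl 4-hydroxylase, an enzyme of collagen folding. It read 58.2, 58.6 and 59.9 FPKM in DMSO, 65.6, 63.6 and 63.4 in H93, and 68.4, 70.3 and 67.9 in SAHA. The groups rose in steps from DMSO to H93 to SAHA without overlap. P4HA1 rose by 9.05% after H93 (log2 difference 0.12, SE 0.0250, adjusted p = 0.000767) and by 16.9% after SAHA (0.22, adjusted p = 9.36e-06). Its list of 11 collagen hydroxylases and crosslinkers was mixed, with 4 higher and 6 lower after H93 (median -0.118) and 4 higher and 5 lower after SAHA (-0.038). Its called share was 90.9% and 81.8%, against 69.8% and 58.8% of all genes. LOX, a collagen crosslinker, rose from 2.26 ± 0.265 to 3.98 ± 0.0691 and 4.68 ± 0.328, while PLOD1, a lysyl hydroxylase, fell from 59.9 ± 0.682 to 44.5 ± 1.52 and 47.8 ± 1.17.

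CA9 encodes carbonic anhydrase IX, a tightly HIF-dependent surface enzyme often read as a marker of hypoxia. It was listed at 0, 0 and 0.0336 FPKM in DMSO, 0.0718, 0.0735 and 0 in H93, and 0.0355, 0 and 0.0356 in SAHA. After scaling for relative depth these values are whole multiples, 0, 1 or 2, of the smallest nonzero value, which may stand for 1 read. A difference between groups was not detectable at this depth. Without the filter on low values limma gave adjusted p = 0.191 for H93 and 0.691 for SAHA. The annotation places ARHGEF39 across CA9 on the opposite strand. Of the 7 tested genes in the pH list, 5 rose and 1 fell after H93 and 4 rose and 0 fell after SAHA, with medians of 0.131 and 0.113 against 0.002 and -0.015 for all genes. The called share was 85.7% after H93, against 69.8% of all genes, and 57.1% after SAHA, close to the 58.8% of all genes. CA12, another membrane carbonic anhydrase, rose from 3.35 ± 0.0582 to 3.98 ± 0.0570 and 4.39 ± 0.197, and the bicarbonate transporter SLC4A7 from 11.8 ± 0.514 to 17.1 ± 0.121 and 17.0 ± 0.489.

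**Figure D3:**
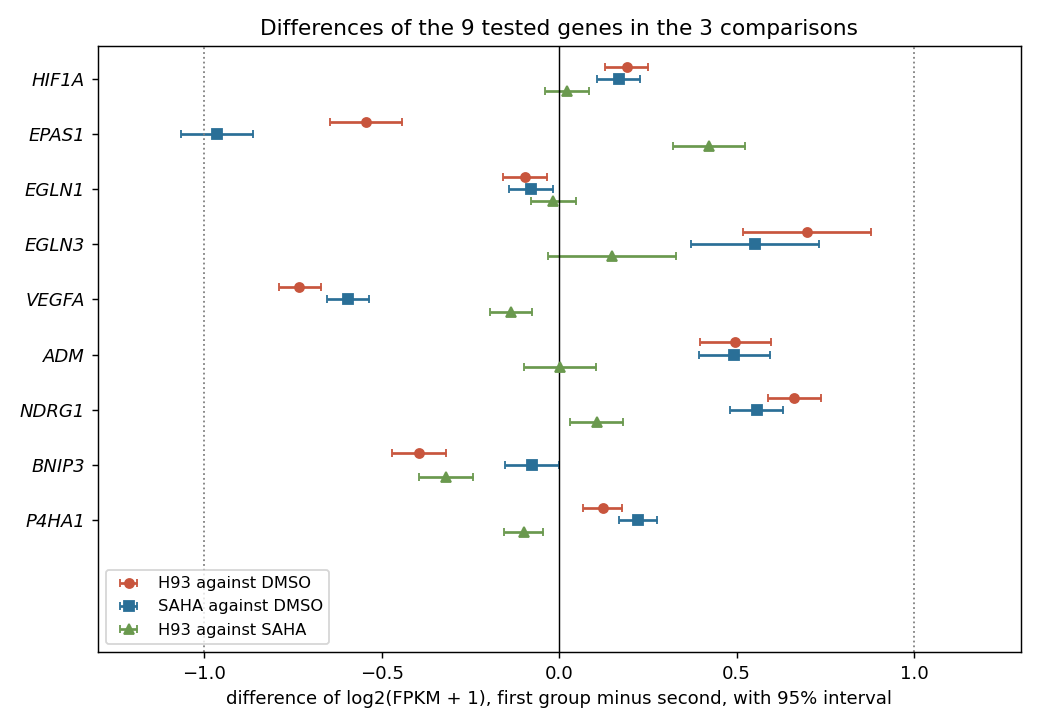
Difference of log2(FPKM + 1) for the 9 tested genes with its 95% interval, for H93 against DMSO (red circles), SAHA against DMSO (blue squares) and H93 against SAHA (green triangles). Dotted lines mark a difference of 1. EPAS1 lies at -0.54 and -0.96 against DMSO, and EPAS1 and BNIP3 are farthest from 0 in the direct comparison.

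The direct comparison of H93 with SAHA asks where the treatments differ, at doses that are not matched. EPAS1 and BNIP3 differed most: EPAS1 was 37.6% higher with H93 (log2 difference 0.42, SE 0.0466, adjusted p = 8.93e-05) and BNIP3 was at 0.8 of its SAHA level (-0.32, SE 0.0346, adjusted p = 8.37e-05). Only 0.868% of tested genes differed by more than EPAS1 and 2.84% by more than BNIP3. In all 5 of the 9 genes were called, where 31.5% of all genes were: EPAS1 and NDRG1 higher with H93, against 17.6% of genes, and BNIP3, VEGFA and P4HA1 lower, against 13.9%. The libraries of these 5 did not overlap, as in 44.4% of genes, and none passed the 2-fold call, which 0.0174% of genes passed. VEGFA was at 0.908 of its SAHA level (-0.14, adjusted p = 0.00319) and P4HA1 at 0.932 (-0.10, adjusted p = 0.0106). NDRG1 was 7.99% higher (0.11, adjusted p = 0.0335), but lost the call without H93 replicate 2 (0.0927), H93 replicate 3 (0.0888), SAHA replicate 1 (0.110) or SAHA replicate 2 (0.0525), and under median-ratio (0.0628) and quantile (0.0679) scaling.

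The other 4 tested genes were not called between H93 and SAHA. The 95% interval of the log2 difference ran from -0.04 to 0.08 for HIF1A, from -0.10 to 0.10 for ADM, from -0.08 to 0.05 for EGLN1 and from -0.03 to 0.33 for EGLN3. Differences inside those intervals, the widest of which belongs to EGLN3, were not resolved with 3 libraries a group.

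HIF coactivators and modulators shape how the dimer acts on its targets. CITED2, a HIF-induced protein that competes with HIF-1 alpha for the coactivators CREBBP and EP300, rose from 51.5 ± 0.734 to 116 ± 1.48 FPKM after H93 (log2 difference 1.16, SE 0.0250, adjusted p = 3.14e-12) and to 86.6 ± 2.23 after SAHA (0.74, adjusted p = 2.45e-10). CREBBP fell from 10.7 ± 0.168 to 8.11 ± 0.0367 and 8.40 ± 0.379, and NCOA3, a steroid receptor coactivator, rose from 9.13 ± 0.303 to 12.7 ± 0.302 and 10.9 ± 0.397. Of the 11 genes 3 rose and 5 fell after H93, and 2 rose and 4 fell after SAHA, with medians of -0.032 and -0.052 against 0.002 and -0.015 for all genes. That is 72.7% and 54.5% of the list, near the 69.8% and 58.8% of all genes.

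Of 20 tested glycolytic HIF targets 5 rose and 10 fell after H93 (median -0.146, against 0.002 for all genes). After SAHA 6 rose and 8 fell (median -0.032, against -0.015), and between H93 and SAHA 0 were higher and 11 lower with H93 (median -0.091, against 0.016). The called share was 75.0% after H93, 70.0% after SAHA and 55.0% between them, against 69.8%, 58.8% and 31.5% of all genes, of which 17.6% were higher and 13.9% lower with H93 than with SAHA. GPI, which converts glucose 6-phosphate to fructose 6-phosphate, fell from 65.2 ± 0.160 to 37.3 ± 0.849 and 45.1 ± 1.55, and PFKL, the liver-type phosphofructokinase, from 49.8 ± 1.14 to 31.8 ± 1.25 and 38.5 ± 2.51. HK1, a hexokinase, rose from 45.4 ± 0.634 to 63.2 ± 1.29 and 62.7 ± 1.47. SLC2A3, a glucose transporter, was low and rose from 0.814 ± 0.0550 to 1.39 ± 0.153 and 1.56 ± 0.129. Over all 9 lists 111 of 122 genes were tested, of which 41 rose and 47 fell after H93 and 41 rose and 37 fell after SAHA. Together 79.3% and 70.3% were called, against 69.8% and 58.8% of all genes. The medians over these 111 genes were -0.011 in both comparisons.

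**Figure D4:**
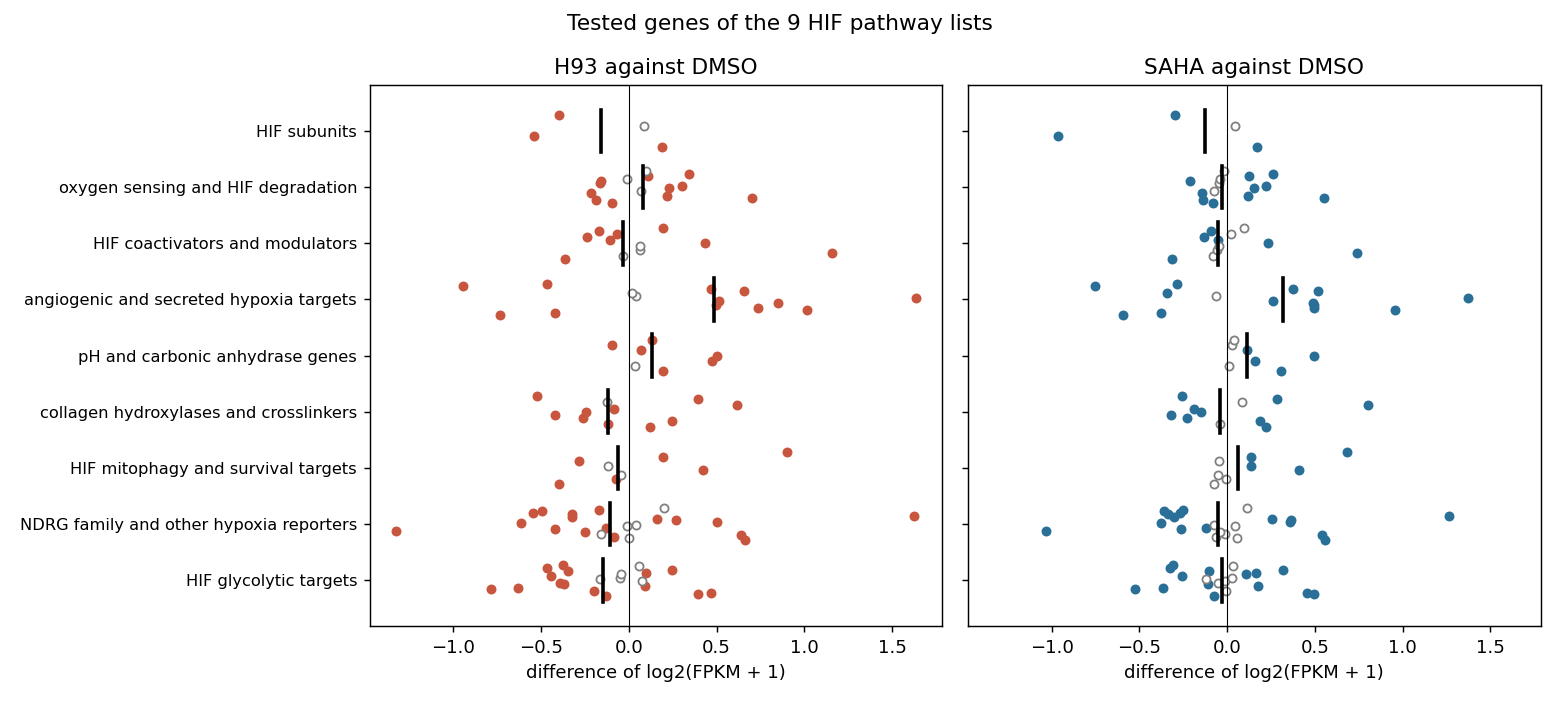
Difference of log2(FPKM + 1) against DMSO for the tested genes of 9 HIF pathway lists, 1 point per gene, filled where limma called the gene and open where it did not, with a vertical bar at each list's median. The angiogenic list has the highest medians (0.483 and 0.318), and after SAHA all 7 pH genes lie above 0.

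For the 4 genes that differed from DMSO by at least 0.58 on the log2 scale, the genes with the most similar pattern over the 9 libraries were sought, as a description with no test. VEGFA was closest to SCD (Pearson r = 0.9985), NR1D2 and TNS3, and 1111 genes reached an r of 0.95. NDRG1 was closest to HLA-C (r = 0.9986), MGST3 and TMCC3, with 1115 genes at that level. EGLN3 was closest to BICD2 (r = 0.986), C4orf19 and SYPL2, with 216. EPAS1 was closest to RRP1B (r = 0.9867), PLPP3 and ZNF75D, with only 51. The patterns of VEGFA and NDRG1 were thus close to those of many genes, and that of EPAS1 to fewer. Correlation leaves the size of a change aside: RRP1B averaged 50.92 FPKM in DMSO, 48.33 in H93 and 47.02 in SAHA, a smaller fall than that of EPAS1.

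In GENCODE release 29 (GRCh38) all 10 are protein-coding genes. HIF1A lies on chromosome 14 from 61695513 to 61748259, EPAS1 on chromosome 2 from 46293667 to 46386703, EGLN1 on chromosome 1 from 231363751 to 231425044 and EGLN3 on chromosome 14 from 33924231 to 34462774. VEGFA lies on chromosome 6 from 43770184 to 43786487, ADM on chromosome 11 from 10304680 to 10307397, NDRG1 on chromosome 8 from 133237171 to 133302022 and CA9 on chromosome 9 from 35673856 to 35681159. BNIP3 and P4HA1 are both on chromosome 10, from 131966455 to 131982013 and from 73007217 to 73096974. For 6 of them (HIF1A, EGLN3, VEGFA, BNIP3, P4HA1 and CA9) the annotation has a gene on the opposite strand that overlaps, and whether counting used strand is not given in the sources used here. Annotated genes on the same strand also overlap EGLN3 (the protein-coding SPTSSA and the pseudogene AL356806.1), HIF1A (AL137129.1) and P4HA1 (RF00019).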

How the data were processed

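RNA from DU145 cells (DMSO, H93 or SAHA, 3 libraries each) was sequenced from stranded TruSeq mRNA libraries, per the labels' protocols. The authors deposited 1 table of FPKM per gene and library. The build was GRCh38.p13, and the tools listed without roles are Cufflinks, HISAT2 and Trimmomatic 0.36, per the submitters' processing notes. The absolute depth is unknown: 97.2% of the values of 1738 genes below an FPKM of 0.1 were whole steps within a tolerance of 0.02, which gave relative depths only, so no counting interval was computed.

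Values were analysed as log2(FPKM + 1), a scale that understates the change of low genes, keeping genes with 3 or more libraries at an FPKM of 1 or above. One limma model (version 3.58.1, R 4.3.3) with a mean per group took in the 9 libraries together, moderated by empirical Bayes along the mean-variance trend (prior degrees of freedom 6.05, residual 6). Tests are two-sided, with Benjamini-Hochberg adjustment over 11525 genes. An exact permutation test of 3 against 3 cannot go below p = 0.1 and was not used. The procedure was tested on simulated data with independent noise and few changed genes, a simpler case than these data.

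The 10 genes, the 9 lists and the tests were chosen with earlier results of these data known. Beyond the 10 genes, up to 3 called genes with the largest difference per list and compound were named (1 of these is not reported here), and any gene of a list of at most 5. VHL, VEGFB, PGF, BNIP3L, NDRG2, NDRG3, ALDOA, GAPDH, ENO1 and EPO were added after their values were seen. Same-numbered libraries did not deviate together (correlations from -0.098 to 0.036, against -0.05 to 0.07 for different numbers), so the main model used no pairing. This check cannot show whether same-numbered libraries were handled together. Alternatives were pseudocounts of 0.1 and 5, no filter, a filter on a mean of 5 FPKM, median-ratio, quantile and fixed-sum scaling, robust moderation, the 6 libraries compared, a replicate block and leaving out each library. The labels give no batch. Python 3.11.15, pandas 2.3.3, numpy 2.4.6 and matplotlib 3.10.9 were used.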

Additional observations from a re-analysis of the deposited data

How the results depend on the processing

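Each of the 27 values of the 9 tested genes was recomputed under 19 alternatives, 9 of which leave out 1 library. Of the resulting 513 values 494 kept their direction and side of the threshold, 11 lost a call, 3 gained one and 5 changed sign. The sign changes all concern ADM between H93 and SAHA, a difference near 0 that was never called: -0.0123 with median-ratio rescaling, -0.0161 with quantile normalization, -0.0097 and -0.0092 without H93 replicate 2 or 3, and -0.0235 without SAHA replicate 1, within a range of -0.0235 to 0.027 when 1 library was left out. The lost and gained calls belong to EGLN1, NDRG1 and BNIP3 as given above. The number of the 9 genes higher with H93 than with SAHA went from 2 to 1 with median-ratio rescaling and with quantile normalization, and between 1 and 2 when a library was left out. No other count moved by more than 1.5 times, and none of the 3 other scalings moved the median of all genes by more than 0.014 on the log2 scale. With the replicate number as a block, 9 of the 9 genes were called after H93, 7 after SAHA and 5 between the compounds. The SAHA count was 8 without the block because EGLN1 had adjusted p = 0.0514 in limma with it. The 2-fold call of EPAS1 after SAHA was gained with a pseudocount of 0.1 and without SAHA replicate 3, as given above. The cause of the other changes was not tested.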

Other observations

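ALDOA, an abundant glycolytic enzyme in most cells, is listed at 3.04 ± 0.371 FPKM in DMSO, 3.25 ± 0.0628 in H93 and 3.01 ± 0.227 in SAHA, beside 2522 ± 11.2 for GAPDH and 879 ± 13.7 for ENO1 in DMSO (SD, n = 3). The erythropoietin gene EPO, a kidney and liver HIF target, was listed at 0.0624, 0.0695 and 0.0625 in the DMSO libraries, at 0 in all 3 H93 libraries, and at 0.0331, 0 and 0.0331 in SAHA. EPO did not pass the filter and was not tested, and at values as low as those of CA9 no difference between groups can be read. ALDOA and EPO were singled out after their values were seen. Without the filter on low values HIF3A was called by limma after H93 (log2 difference 0.42, adjusted p = 6.12e-05) and after SAHA (0.44, adjusted p = 7.80e-05), at levels under an FPKM of 0.5.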
